A study of Mus musculus with 12 samples.

Results

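Mettl5, which encodes the catalytic subunit of the METTL5-TRMT112 methyltransferase of 18S rRNA, lies on the minus strand of mouse chromosome 2. The protein-coding genes on both sides of it are described here in mice labelled Mettl5 knockout (KO) and wild type (WT). The genes were chosen by position alone. They are the protein-coding genes of chromosome 2 whose first base lies from 59871198 to 79885615 of mm10, about 10 Mb on each side of Mettl5, without Mettl5 itself and without Ssb, which overlaps it. This gave 122 genes of the 55487 in the table, or of the 21974 protein-coding ones, and left 1719 other protein-coding genes on chromosome 2. The question is how far the difference between KO and WT depended on position.

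Liver and brain RNA of 6 mice was sequenced, which gave 4 groups of 3 libraries. KO mice (A, C and F) carry the METTL5 KO allele, and WT mice (B, D and E) are labelled wild type. For the sequenced RNA, the study's main figure legends compare Mettl5-/- mice with Mettl5+/- (heterozygous) controls. The title of its supplementary RNA-seq table names wild type instead. WT below means no more than the label. The allele came from a conditional line with a floxed exon 2, made in ES cells that were a hybrid of C57bl/6 and 129S6, and was crossed to C57bl/6 and then to a CMV-cre line, which deletes in the whole body. The labels give no sex, age, litter or strain typing of the neighbouring sequence, and liver and brain carrying the same letter are from the same mouse. Mice E and F, 1 of each genotype, had at most 20 Y-linked counts in a library, against at least 2112 in the other mice.

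Chromosome 2 holds several gene groups in this stretch. A cluster of voltage-gated sodium channel genes, which set neuronal excitability, lies on the side of lower coordinates. The homeobox genes Dlx1 and Dlx2, the zinc finger gene Sp9 and Gad1, which makes the transmitter GABA, lie on the side of higher coordinates and act in GABAergic interneurons. Further out on that side lie the Hoxd genes, which pattern the embryonic axis and limbs, and Neurod1, a basic helix-loop-helix factor of granule neurons. Abcb11 encodes the bile salt export pump of hepatocytes.

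Libraries held 14403309 to 21623180 counts. Levels are normalised read counts (CPM, counts scaled by the TMM-adjusted library size to a common total). In bulk tissue, fewer cells of a type and less RNA per cell cannot be told apart. The summed level of 7 hepatocyte markers was 62500 to 81800 CPM in the liver libraries, and that of 6 neuronal markers 3460 to 4240 CPM in the brain libraries. Mettl5 was at 14.9, 8.13 and 8.35 CPM in the livers of WT mice B, D and E and at 3.85, 3.64 and 4.07 CPM in KO mice A, C and F. In brain it was at 9.09, 5.87 and 5.02 CPM in WT and at 3.33, 3.96 and 3.82 CPM in KO, so WT and KO were apart in both tissues. Ssb, the La RNA-binding protein, differed by -1.28 in liver and by 0.80 in brain as a log2 fold change of KO against WT.

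Of the 122 genes, 73 passed the filter on low counts in liver and 92 in brain, 69 of them in both tissues. Spc25, Abcb11, Dhrs9 and Sp5 passed in liver only, 23 genes in brain only, and 26 in neither, with at most 16 counts in any library. The Hoxd cluster was among the last: 0 of its 10 listed genes were tested in either tissue. Per kilobase of exon, Abcb11 had the highest WT level of the group in liver (149 CPM per kb), followed by Cd302 (104), a C-type lectin receptor, and Atp5g3 (45.3), a subunit of mitochondrial ATP synthase. In brain the highest WT levels per kilobase were those of Rapgef4 (58.7 CPM per kb) and Chn1 (58.6), a Rac-regulating chimaerin, followed by Scn2a (39.0). The KO levels per kilobase of Abcb11 (146) and Cd302 (99.7) in liver lay close to those of WT.

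In liver, the genes around Mettl5 were more often lower than higher in KO. An unadjusted p under 0.05 in edgeR's quasi-likelihood test was reached by 12 of 73 (16.4%), against 7.33% of all 14075 genes tested. Of these, 11 (15.1%) were lower in KO, against 4.57% of all genes, and 1 (1.37%) was higher, against 2.76%. The 3 KO libraries lay wholly above or below the 3 WT libraries for 13 genes (17.8%), against 12.9% of all genes. No gene of the group passed an adjusted p of 0.1 (Benjamini-Hochberg over all genes tested), where the smallest value was 0.383, and 0% of all genes did. DESeq2 called 4 of the 77 genes of the group to which it gave an adjusted p (Spc25, Nostrin, Ppig and Rapgef4), against 1.13% of all such genes. Without WT mouse B, 7 genes had a p under 0.05, against 4.85% of all genes.

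Over the 73 genes, 50 were below and 23 above 0 in liver, with a median log2 fold change of -0.11 against -0.0024 over all genes tested. Relative to the WT mean, the median of the group was -0.09 in KO mouse A, -0.17 in C and -0.02 in F, and from -0.06 to 0.04 in the WT mice, so the KO and WT ranges overlapped. The size of the difference was near that of all genes, with a median absolute log2 fold change of 0.19 against 0.17. The group is poor in GC, with a median GC content of exons of 44.8% against 49.4% over the genes tested. In liver the median log2 fold change over all genes went from -0.131 in the lowest of 5 equal GC classes to 0.083 in the highest, and 62 of the 73 genes lay in the lowest 2 classes. With an offset for GC content and length, the median of the group was -0.04, and 8 genes were lower and 2 higher at p under 0.05, which 6.83% of all genes reached. The share of counts from mitochondrial rRNA also moved with genotype in liver, at 10.7% to 16.9% in WT and 7.36% to 8.66% in KO, and its part in the result was not tested.

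Spc25, a subunit of the NDC80 complex that ties kinetochores to microtubules, had the smallest p in liver. Its level was 4.63, 3.71 and 2.21 CPM in WT mice B, D and E and 1.08, 1.06 and 1.25 CPM in KO mice A, C and F. The groups did not overlap, and the 3 KO libraries were close together. The log2 fold change was -1.63 ± 0.35 (SE), at an adjusted p of 0.383 (edgeR). Cdca7, a chromatin protein that recruits the remodeller HELLS in dividing cells, was at 1.85, 1.86 and 1.82 CPM in WT and 0.422, 0.896 and 0.782 CPM in KO. Every KO library of Cdca7 was below every WT library, with a log2 fold change of -1.38 ± 0.39 (SE) and an adjusted p of 0.463. Both were low in these livers: Spc25 had 18 to 90 counts and Cdca7 7 to 36 counts per liver library. The other 7 tested genes of the chromatin and cell division list, which also holds cilium genes such as Bbs5, did not reach p under 0.05 in liver.

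The RefSeq promoters (GRCm38.p6) of these cell division genes are shown because both genes were lower in every KO liver. The Spc25 window is chr2:69206164-69206463 on the minus strand and that of Cdca7 chr2:72475969-72476268 on the plus strand, each from 250 bases before to 50 after the start. Capitals mark the GC box GGGCGG, the cell cycle homology region TTTGAA and the CCAAT box, on either strand. No searched motif overlapped another.
Spc25: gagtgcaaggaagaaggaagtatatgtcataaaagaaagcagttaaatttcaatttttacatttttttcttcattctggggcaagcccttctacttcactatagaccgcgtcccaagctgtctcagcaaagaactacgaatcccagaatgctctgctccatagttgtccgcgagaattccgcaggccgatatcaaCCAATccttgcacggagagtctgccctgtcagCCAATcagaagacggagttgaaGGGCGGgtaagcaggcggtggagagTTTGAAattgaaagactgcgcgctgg
Cdca7: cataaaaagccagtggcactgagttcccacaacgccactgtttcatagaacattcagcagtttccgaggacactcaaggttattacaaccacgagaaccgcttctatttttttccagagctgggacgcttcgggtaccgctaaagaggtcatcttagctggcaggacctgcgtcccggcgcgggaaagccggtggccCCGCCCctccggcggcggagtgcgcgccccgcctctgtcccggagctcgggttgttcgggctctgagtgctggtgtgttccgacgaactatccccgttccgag
Spc25 held 1 GC box, 2 CCAAT boxes and 1 TTTGAA, whereas Cdca7 held 1 GC box. Among all 32851 mouse promoter windows, 35.7% held a GC box, 37.4% a CCAAT box and 17.9% a TTTGAA, so these matches are frequent. Windows were found for 112 of the 122 genes.

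Ppig, a nuclear cyclophilin associated with splicing factors, lies 117 kb from Mettl5. Its liver level was 59.9, 21.8 and 55.6 CPM in WT mice B, D and E and 18.8, 13.8 and 20 CPM in KO. The WT library of mouse D was close to the KO libraries, and the other WT libraries were far above them. The log2 fold change was -1.38 ± 0.39 (SE), at an adjusted p of 0.485 (edgeR), and without WT mouse D it was -1.72 at an adjusted p of 0.0208. Leaving out any other mouse gave -1.49 to -1.14, at adjusted p of 0.583 to 0.985 in edgeR. Ccdc173, the next gene after Ppig, was below the filter in liver, at 12, 16 and 18 counts in WT and 2, 1 and 5 counts in KO, again without overlap. Nostrin, an adaptor that binds endothelial nitric oxide synthase, was at 21.3, 18.7 and 21.9 CPM in WT and 12.1, 10.5 and 14.6 CPM in KO. The groups were well apart, and the log2 fold change of Nostrin was -0.73 ± 0.16 (SE) at an adjusted p of 0.383. With the presence of Y-linked transcripts as a covariate, Nostrin was the gene of the group that passed, at an adjusted p of 0.0655, where 0.583% of all genes passed.

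Ifih1, the cytosolic sensor of double-stranded RNA also known as MDA5, was at 32.7, 34.2 and 44.7 CPM in WT livers and 25.3, 20.2 and 30.1 CPM in KO livers. Its groups did not overlap, and the log2 fold change was -0.56 ± 0.18 (SE) at an adjusted p of 0.497 (edgeR). Cir1, a corepressor of Notch target genes, was at 13.6, 10.1 and 13.6 CPM in WT and 9.76, 7.28 and 8.55 CPM in KO. The gap between the nearest WT and KO libraries of Cir1 was small, and its log2 fold change was -0.55 ± 0.19 (SE) at an adjusted p of 0.537. Tank, an adaptor of NF-kappa-B and interferon signalling, was at 24.0, 19.4 and 15.9 CPM in WT and 15.4, 15.8 and 11.9 CPM in KO. For Tank the lowest WT and the highest KO library almost touched, and the log2 fold change was -0.46 ± 0.19 (SE) at an adjusted p of 0.657.

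The other 4 genes lower in liver at p under 0.05 were Nfe2l2 (-0.47), the regulator of the oxidative stress response, Psmd14 (-0.40), a deubiquitinase of the proteasome, Hnrnpa3 (-0.38), an RNA-binding protein, and Pdk1 (-0.36), a kinase of pyruvate dehydrogenase. Of these, Nfe2l2 and Psmd14 overlapped between the groups. Rapgef4, a cAMP-activated exchange factor for Rap also known as EPAC2, was the gene higher at p under 0.05. It was at 85.6, 101 and 96.8 CPM in WT livers and 161, 128 and 129 CPM in KO livers. All 3 KO libraries were above WT, and the log2 fold change was 0.56 ± 0.14 (SE) at an adjusted p of 0.428 (edgeR). Bbs5, a subunit of the BBSome of cilia, and Slc25a12, the mitochondrial aspartate-glutamate carrier, were also without overlap above WT. Their log2 fold changes were 0.60 ± 0.36 (SE) and 0.18 ± 0.13 (SE), with unadjusted p of 0.125 and 0.217 in edgeR's test.

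**Figure D1:**
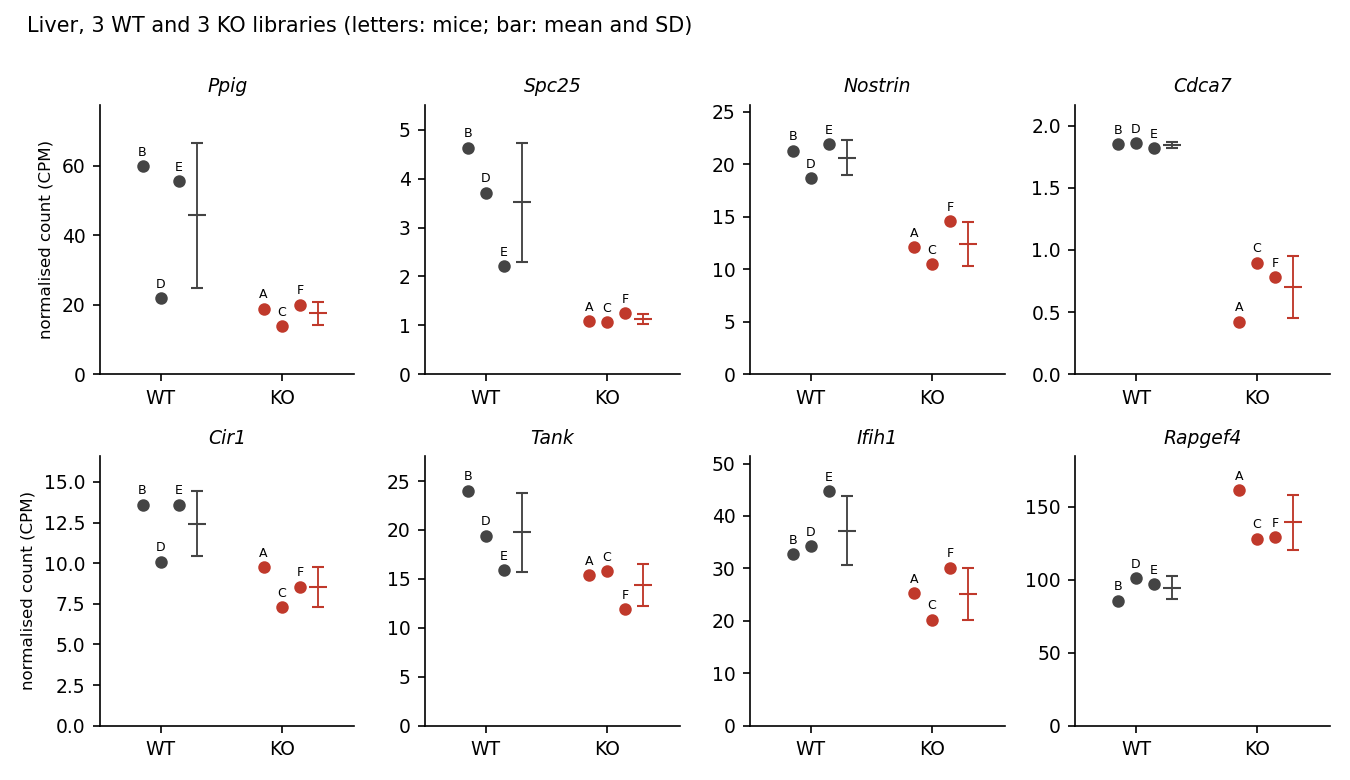
Normalised read counts (CPM, y axis, linear and from 0, with its own scale in each panel) of 8 genes in the 3 WT and 3 KO liver libraries, with letters for mice and bars for mean and SD. The KO points lie below the WT points in 7 panels and above them for Rapgef4, and the WT point of mouse D is near the KO points for Ppig.

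The role lists showed few differences in liver beyond these genes. Among 9 tested genes of RNA processing, 3 were lower (Ppig, Cir1 and Hnrnpa3) and 0 higher at p under 0.05, with a list median of -0.24. Of 7 tested genes of membrane transport, peptidases and endocytosis, 1 was lower (Nostrin). In contrast, Abcb11 differed by -0.03 ± 0.17 (SE) and Dpp4, a serine dipeptidyl peptidase, by -0.09 ± 0.18 (SE). Of 8 mitochondrial genes 1 was lower (Pdk1) and the list median was -0.04. Of 6 genes of ubiquitin and proteasome function 2 were lower (Tank and Psmd14), and of 6 integrins and immune receptors 1 was lower (Ifih1). Of 4 tested transcription factors of the neuronal list 1 was lower (Nfe2l2), and of 7 genes of neuronal signalling 1 was higher (Rapgef4). No gene passed p under 0.05 among 3 tested channel genes and regulators, 6 lipid genes or 3 genes of the muscle structural list. By comparison, 4.57% of all genes tested in liver were lower and 2.76% higher at p under 0.05, and the median over all genes was -0.0024. The lists are short and were drawn up with earlier results of these data known, so their counts describe the named genes only.

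The tested genes nearest to Mettl5 in liver were Klhl23, Phospho2, Ppig and Fastkd1 on the side of lower coordinates and Ubr3, Sp5, Gorasp2 and Tlk1 on the other. Klhl23, a kelch-like adaptor 34.5 kb away, was at 1.85, 1.15 and 1.65 CPM in WT and 2.05, 1.46 and 1.77 CPM in KO, with overlap between the groups. Phospho2, a phosphatase 71.2 kb away, differed by -0.12 ± 0.15 (SE), and Fastkd1, a regulator of mitochondrial RNA 158 kb away, by 0.19 ± 0.14 (SE). Ubr3, a ubiquitin ligase 11.6 kb away on the other side, was at 204, 207 and 191 CPM in WT and 217, 211 and 188 CPM in KO, with a log2 fold change of 0.04 ± 0.13 (SE). Sp5, a zinc finger factor induced by Wnt signals, differed by -0.38 ± 0.50 (SE), Gorasp2, a Golgi stacking protein, by -0.14 ± 0.26 (SE), and Tlk1, a kinase of chromatin assembly, by -0.15 ± 0.13 (SE). Among these 8 nearest genes, Ppig alone had a p under 0.05 and groups without overlap in liver.

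In brain, the genes around Mettl5 were more often higher than lower in KO. An unadjusted p under 0.05 was reached by 14 of 92 (15.2%), against 11.0% of all 17188 genes tested. Of these, 9 (9.78%) were higher, against 5.96% of all genes, and 5 (5.43%) were lower, against 5.01%. The libraries did not overlap for 18 genes (19.6%), against 16.3% of all genes, with 11 higher and 7 lower. In edgeR 0 genes of the group passed an adjusted p of 0.1, against 0.0640% of all genes, and the smallest adjusted p was 0.147. DESeq2 called 2 of 93, Dlx1 and Sp9, against 1.52% of all genes with an adjusted p. The count depended on single mice: 7 genes had a p under 0.05 without WT mouse D, 9 without KO mouse A and 9 without KO mouse F, when 5.30%, 6.18% and 6.16% of all genes did.

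Over the 92 genes, 63 were above and 29 below 0 in brain, with a median log2 fold change of 0.09 against -0.0016 over all genes tested, but the median was -0.03 with the offset for GC content and length. Relative to the WT mean, the median of the group was 0.22 in KO mouse A, -0.03 in C and 0.11 in F, against 0.10, -0.10 and 0.03 in WT mice B, D and E. The KO and WT ranges overlapped. The median absolute log2 fold change was 0.20 against 0.22 over all genes. In brain the median over all genes went from 0.252 in the lowest GC class to -0.167 in the highest, the opposite order to liver, and 75 of the 92 genes lay in the lowest 2 classes. With the offset, 10 genes were higher and 6 lower at p under 0.05, which 13.2% of all genes reached. The share of counts from mitochondrial rRNA was 7.63% to 17.7% in WT and 21.4% to 31.6% in KO brains.

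Markers of brain regions differed between the brain libraries as well. Of 12 tested olfactory bulb markers 11 were higher in KO, 10 at p under 0.05 and 7 at an adjusted p under 0.1 in edgeR. Over all genes tested in brain, 5.96% were higher at p under 0.05, and 11 genes (0.0640%) passed the adjusted threshold. The median log2 fold change of the list was 3.13, while its summed level overlapped (113 to 236 CPM in WT and 136 to 222 in KO). All 11 cerebellum markers were lower, 10 at p under 0.05, against 5.01% of all genes. Their summed levels were 1150 to 1820 CPM in WT and 249 to 775 in KO. All 6 choroid plexus markers were lower, with summed levels of 29.6 to 46.6 CPM in WT and 18.5 to 23.5 in KO. All 6 striatum markers lay above WT in KO (median 0.59 on the log2 scale), 0 of them at p under 0.05, and their summed levels of 170 to 326 CPM in WT and 330 to 469 in KO did not overlap. No marker of these lists was at or under 3 counts in every brain library. Neurod1 is itself on the cerebellum list. The part of these markers in the differences of Dlx1, Dlx2, Sp9, Neurod1 and Cerkl was not tested.

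Dlx1, a homeobox factor of GABAergic interneurons 1.64 Mb from Mettl5, had the smallest p of the group in brain. It was at 5.67, 2.86 and 4.62 CPM in WT mice B, D and E and at 11.7, 16.8 and 12.9 CPM in KO mice A, C and F. Every KO library was far above the highest WT library. The log2 fold change was 1.66 ± 0.27 (SE), at an adjusted p of 0.147 in edgeR and 3.7e-05 in DESeq2. Dlx2, its neighbour on the opposite strand, was at 1.93, 1.10 and 1.21 CPM in WT and 1.71, 3.67 and 3.10 CPM in KO, where mouse A lay among the WT libraries. The log2 fold change of Dlx2 was 1.01 ± 0.39 (SE) at an adjusted p of 0.408. Sp9, a zinc finger factor of striatal and olfactory bulb interneurons, was at 5.03, 3.61 and 5.78 CPM in WT and 8.29, 14.2 and 9.10 CPM in KO. The groups of Sp9 did not overlap, with a log2 fold change of 1.13 ± 0.27 (SE) and an adjusted p of 0.32 in edgeR and 0.0363 in DESeq2. Gad1, the enzyme that makes GABA, was at 140, 194 and 180 CPM in WT and 153, 235 and 162 CPM in KO, with overlap and a log2 fold change of 0.10 ± 0.20 (SE).

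Dlx1 had 0 counts in all 6 liver libraries, which allows up to 3 counts per library, and Dlx2, Sp9 and Neurod1 had at most 1 count in any liver library. Their RefSeq promoters (GRCm38.p6) are shown with that of Neurod1, since these 4 transcription factor genes held, together with Cerkl, the largest brain differences among the tested genes of the group. The windows are chr2:71529195-71529494 for Dlx1 and chr2:73271676-73271975 for Sp9, on the plus strand, and chr2:71546705-71547004 for Dlx2 and chr2:79456587-79456886 for Neurod1, on the minus strand. Capitals mark the same motifs as above, and the homeodomain core TAATTA and the TATA box TATAAA were searched on both strands too.
Dlx1: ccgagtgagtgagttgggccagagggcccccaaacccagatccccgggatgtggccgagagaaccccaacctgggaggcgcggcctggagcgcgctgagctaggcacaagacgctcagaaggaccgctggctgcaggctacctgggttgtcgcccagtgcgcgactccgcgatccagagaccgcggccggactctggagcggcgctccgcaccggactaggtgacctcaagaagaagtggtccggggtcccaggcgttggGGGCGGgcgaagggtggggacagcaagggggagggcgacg
Dlx2: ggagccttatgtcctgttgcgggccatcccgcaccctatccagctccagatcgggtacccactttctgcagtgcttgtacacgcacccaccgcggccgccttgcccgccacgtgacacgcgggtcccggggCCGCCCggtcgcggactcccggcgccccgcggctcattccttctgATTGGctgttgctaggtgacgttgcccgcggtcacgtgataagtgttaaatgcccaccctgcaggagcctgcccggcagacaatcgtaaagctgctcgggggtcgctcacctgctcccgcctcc
Sp9: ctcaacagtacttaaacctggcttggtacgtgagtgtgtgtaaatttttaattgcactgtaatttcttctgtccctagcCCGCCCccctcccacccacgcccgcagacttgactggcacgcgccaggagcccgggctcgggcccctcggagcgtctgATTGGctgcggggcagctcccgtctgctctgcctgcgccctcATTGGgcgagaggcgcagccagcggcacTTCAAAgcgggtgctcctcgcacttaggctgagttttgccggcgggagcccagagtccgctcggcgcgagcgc
Neurod1: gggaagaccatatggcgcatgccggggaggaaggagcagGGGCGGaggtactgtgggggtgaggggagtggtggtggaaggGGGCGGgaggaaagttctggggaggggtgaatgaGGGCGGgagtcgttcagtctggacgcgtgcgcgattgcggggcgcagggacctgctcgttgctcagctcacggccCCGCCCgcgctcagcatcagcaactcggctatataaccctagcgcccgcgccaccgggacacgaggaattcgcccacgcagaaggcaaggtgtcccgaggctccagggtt
Each of the 4 windows held GC boxes, 1 in Dlx1, Dlx2 and Sp9 and 4 in Neurod1. Dlx2 held 1 CCAAT box and Sp9 2, and Sp9 held 1 TTTGAA. None of the 6 printed windows held TAATTA, which 5.29% of all windows held, or TATAAA, which 13.6% held. Over the 140 windows of the genes around Mettl5, 47.9% held a GC box and 37.1% a CCAAT box. The Dlx1 start used by RefSeq lies 1332 bases from the 5′ end of the gene in the counts table.

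Tank was at 26.9, 17.3 and 27.8 CPM in WT brains and 41.9, 32.6 and 39.8 CPM in KO brains. The groups did not overlap, with a log2 fold change of 0.67 ± 0.20 (SE) and an adjusted p of 0.355 (edgeR). Cdca7 was at 2.45, 1.05 and 1.96 CPM in WT and 2.76, 3.38 and 3.43 CPM in KO, a small gap, with a log2 fold change of 0.82 ± 0.35 (SE) and an adjusted p of 0.442. Cir1 was at 20.5, 14.3 and 18.8 CPM in WT and 26.0, 23.0 and 23.2 CPM in KO, again without overlap, with 0.43 ± 0.17 (SE) and an adjusted p of 0.411. Cir1 and Sp9 overlap at their ends on opposite strands, and the counting was stranded. Scn3a, a sodium channel subunit prominent in the developing brain, was at 55.1, 25.5 and 44.8 CPM in WT and 92.3, 53.9 and 70.5 CPM in KO. WT mouse B and KO mouse C of Scn3a overlapped, and the log2 fold change was 0.79 ± 0.29 (SE) at an adjusted p of 0.404. Tlk1 (0.36 ± 0.14, SE) and Ccdc141 (0.42 ± 0.15, SE), a centrosomal protein of migrating neurons, completed the 9 genes higher at p under 0.05, and both were without overlap.

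Neurod1, 9.57 Mb from Mettl5, had the most negative difference in brain among the tested genes of the group. It was at 83.4, 112 and 73.1 CPM in WT mice B, D and E and 9.84, 51.7 and 36.0 CPM in KO mice A, C and F. The KO libraries were all below WT but far apart from each other, and the log2 fold change was -1.46 ± 0.49 (SE) at an adjusted p of 0.394 (edgeR). Cerkl, a ceramide kinase-like gene, overlaps Neurod1 on the same strand, so reads of the shared exons cannot be told apart and its value is uncertain. Cerkl was at 9.41, 7.28 and 5.83 CPM in WT and 1.06, 4.17 and 3.76 CPM in KO, in the same order of mice among the KO libraries as Neurod1. Its log2 fold change was -1.30 ± 0.42 (SE) at an adjusted p of 0.373. Rbm45, an RNA-binding protein, was at 21.0, 19.3 and 17.0 CPM in WT and 12.7, 12.3 and 14.4 CPM in KO, with tight groups and a log2 fold change of -0.54 ± 0.16 (SE), adjusted p 0.355. Ube2e3, a ubiquitin-conjugating enzyme, differed by -0.32 ± 0.13 (SE) and Osbpl6, an oxysterol-binding protein, by -0.30 ± 0.13 (SE), both without overlap. Cobll1, an actin regulator, was also without overlap below WT, at -0.34 ± 0.17 (SE) and an unadjusted p of 0.0838 in edgeR's test.

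**Figure D2:**
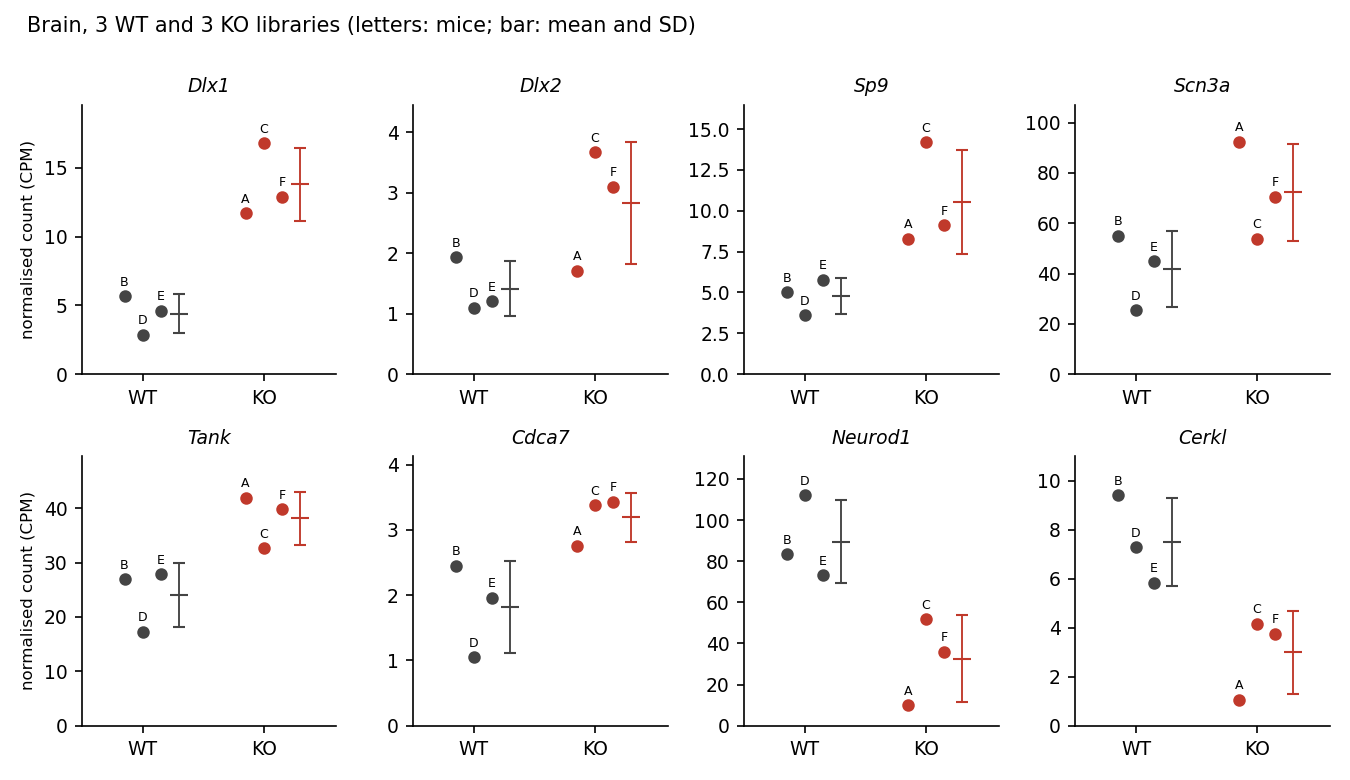
Normalised read counts (CPM, y axis, linear and from 0, with its own scale in each panel) of 8 genes in the 3 WT and 3 KO brain libraries, with letters for mice and bars for mean and SD. KO lies above WT without overlap for Dlx1, Sp9, Tank and Cdca7 and below WT for Neurod1 and Cerkl, whereas Dlx2 and Scn3a overlap.

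By role, 9 tested genes were listed as GABAergic and neuronal transcription factors, a list that also holds the enzyme Gad1 and the stress regulator Nfe2l2. In brain, 3 of them were higher (Dlx1, Dlx2 and Sp9) and 1 lower (Neurod1) at p under 0.05. Tbr1, a factor of glutamatergic cortical neurons, differed by 0.08 ± 0.34 (SE). Of 10 tested channel genes and regulators 1 was higher (Scn3a), 0 were lower, and the list median was 0.36. Scn1a and Scn2a, the more abundant sodium channel genes, differed by 0.03 ± 0.14 (SE) and 0.01 ± 0.16 (SE). Scn9a was at 0.71 ± 0.35 (SE) and Scn7a at 0.80 ± 0.41 (SE), with unadjusted p of 0.0727 and 0.0817 in edgeR's test. None of 9 genes of neuronal signalling, 8 mitochondrial genes, 8 genes of transport and endocytosis or 6 integrins and immune receptors passed p under 0.05. Of 9 genes of RNA processing 1 was higher (Cir1) and 1 lower (Rbm45), and of 8 lipid genes 2 were lower (Cerkl and Osbpl6). Of 8 tested genes of the chromatin and cell division list 2 were higher (Tlk1 and Cdca7). Of 6 ubiquitin and proteasome genes 1 was higher (Tank) and 1 lower (Ube2e3). Of 3 genes of the muscle structural list 1 was higher, namely Ccdc141, described above as a centrosomal protein. Of all genes tested in brain, 5.96% were higher and 5.01% lower at p under 0.05, and the median was -0.0016. As in liver, the lists are short and were drawn up with earlier results known, so their counts describe the named genes only.

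The 8 tested genes nearest to Mettl5 in brain held none with a p under 0.05. On the side of lower coordinates these were Klhl23 (0.03 ± 0.17, SE), Phospho2 (0.01 ± 0.17, SE), Ccdc173 (0.57 ± 0.37, SE) and Ppig (-0.02 ± 0.14, SE). On the other side they were Ubr3 (0.13 ± 0.13, SE), Myo3b (0.40 ± 0.40, SE), an unconventional myosin, Erich2 (-0.62 ± 0.49, SE) and Gad1. Ppig was at 105, 92.9 and 93.1 CPM in WT and 110, 88.8 and 89.2 CPM in KO, and the groups overlapped. Sp5 was below the filter in brain, at 21, 18 and 10 counts in WT and 0, 4 and 1 counts in KO, without overlap.

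In liver the share of genes with a p under 0.05 was nearly the same in each distance class within 10 Mb, against 7.33% of all genes. The share without overlap between KO and WT libraries was smaller farther out. It was 6 of 25 genes (24.0%) within 2 Mb, 3 of 17 (17.6%) from 2 to 5 Mb and 4 of 31 (12.9%) beyond, against 12.9% of all genes. A p under 0.05 was reached by 4 of 25 genes within 2 Mb (16.0%), 3 of 17 from 2 to 5 Mb (17.6%) and 5 of 31 from 5 to 10 Mb (16.1%). Of the 4 within 2 Mb, 3 (Nostrin, Spc25 and Ppig) lay within 2 Mb on the side of lower coordinates, where 13 genes had a median absolute log2 fold change of 0.41, and 1 (Pdk1) lay on the other side, where 12 genes had a median of 0.17. From 5 to 10 Mb the medians were 0.12 over 12 genes and 0.24 over 19 genes. With the window widened to 20 Mb on each side, 14 of 121 genes had a p under 0.05 in liver. Across the 73 genes the Spearman correlation of absolute log2 fold change with distance was -0.18. It was -0.02 without KO mouse F, -0.08 without WT mouse B and -0.34 in the genes within 5 Mb. The genes share libraries and their positions are not independent, so no p is given.

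In brain the share was larger farther out, from 3 of 28 genes within 2 Mb (10.7%) through 4 of 26 from 2 to 5 Mb (15.4%) to 7 of 38 from 5 to 10 Mb (18.4%), against 11.0% of all genes. These counts are small, and the last class includes Neurod1 and Cerkl, which overlap on the same strand. The median absolute log2 fold change was not larger farther out, at 0.22 within 2 Mb, 0.25 from 2 to 5 Mb and 0.16 from 5 to 10 Mb. The sides differed in count. On the side of lower coordinates 2 of 38 genes had a p under 0.05 (Tank and Scn3a), against 12 of 54 on the other side. All 5 genes lower in KO lay from 6.48 to 9.57 Mb on the side of higher coordinates, and 7 of the 9 higher genes lay on the same side, from 0.827 to 7.12 Mb. The Spearman correlation of absolute log2 fold change with distance was -0.01 across the 92 genes, and -0.12 to -0.07 without KO mouse A, WT mouse B or KO mouse F. In the genes within 5 Mb, 7 of 54 had a p under 0.05 in brain, all higher in KO. Over all genes, 11.0% had such a p, and 5.96% were higher.

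**Figure D3:**
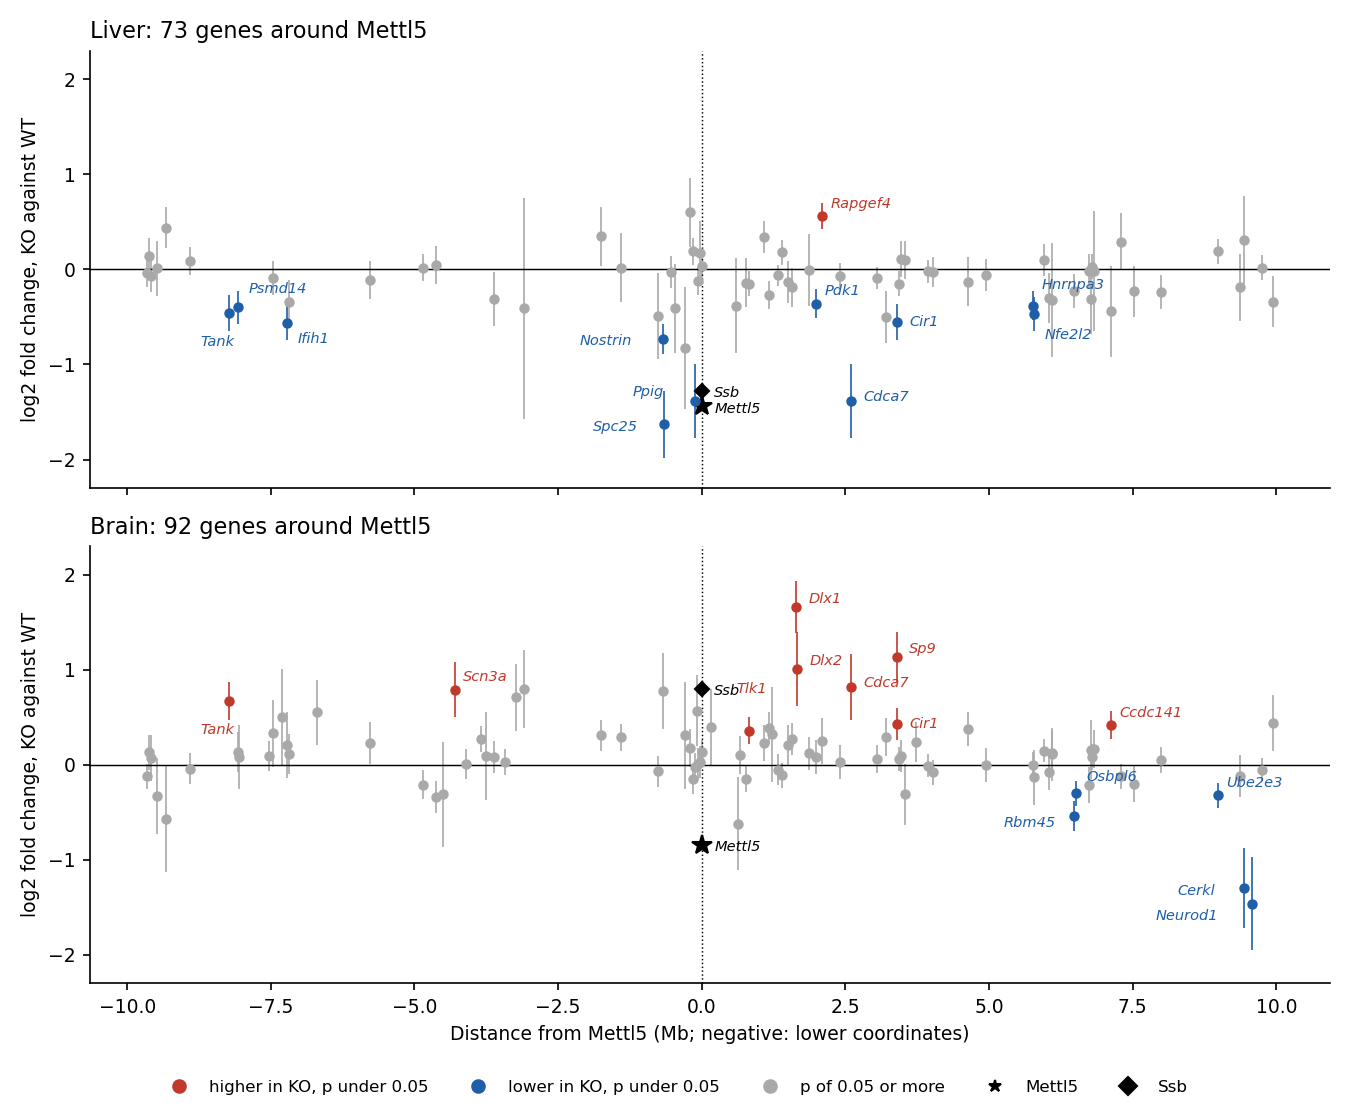
Log2 fold change of KO against WT (y axis, bars are SE) by signed distance from Mettl5 in Mb (x axis) for 73 genes in liver and 92 in brain, with unadjusted p under 0.05 in colour and Mettl5 and Ssb in black for reference. Genes with a p under 0.05 are spread over the stretch in liver, and the 5 lower ones in brain are at its far end on the side of higher coordinates.

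Other stretches of chromosome 2 gave a scale for these shares. In 10 Mb steps from Mettl5 that held at least 20 tested protein-coding genes, the shares with a p under 0.05 in liver were 20% of 30 genes on the side of lower coordinates and 13.6% of 44 on the other. The other 15 steps ran from 0% to 25.7%, and 1 of them, 100 to 110 Mb away, lay above both. The steps follow the gap to Mettl5, which added 1 gene across the outer edge. Over all other protein-coding genes of chromosome 2 the share was 7.52%, and over those of other chromosomes 7.38%. The median absolute log2 fold change was 0.322 and 0.186 in the steps next to Mettl5 and 0.125 to 0.375 in the others. In brain the steps next to Mettl5 held 5.13% of 39 genes and 22.2% of 54, equal to the lowest and the highest of the other 16 steps (5.13% to 22.2%). The other protein-coding genes of chromosome 2 stood at 10.1% in brain and those of other chromosomes at 10.7%.

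**Figure D4:**
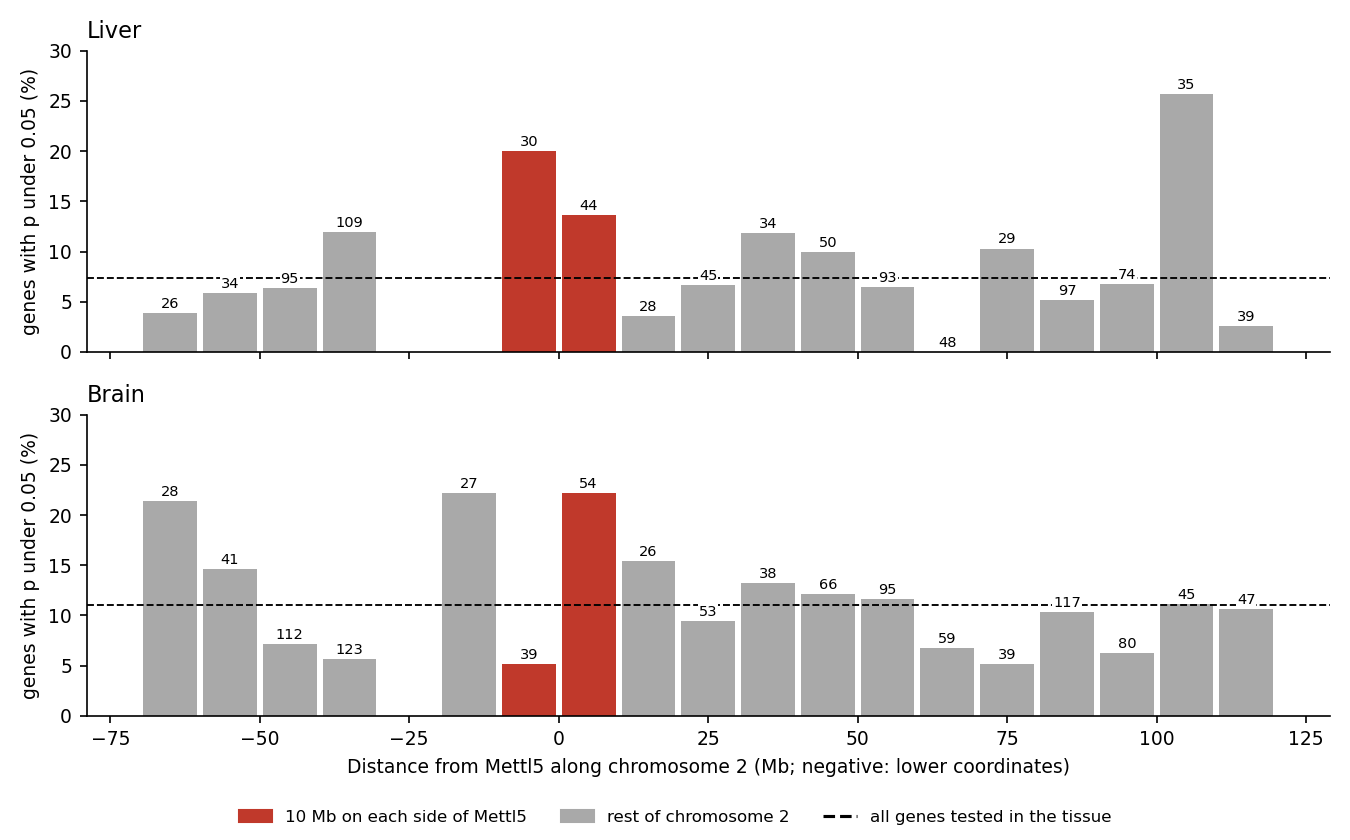
Percent of tested protein-coding genes with an unadjusted p under 0.05 (y axis, from 0) in 10 Mb steps of distance from Mettl5 (x axis), where numbers on the bars are genes tested, steps with fewer than 20 genes are left out and the dashed line is the share of all genes. The steps next to Mettl5 (red) stand at 20% and 13.6% in liver and 5.13% and 22.2% in brain, and a step 100 to 110 Mb away stands at 25.7% in liver.

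Liver and brain were read against each other for the 69 genes tested in both. A p under 0.05 in both tissues was reached by 3 (Tank, Cdca7 and Cir1), against 1.37% of the 12574 genes tested in both. All 3 were lower in KO in liver and higher in brain, without overlap in either tissue. Opposite directions were common among such genes in the whole table, at 151 of 172 (87.8%). When the KO against WT effect in brain was subtracted from that in liver over all 12 libraries, 14 of 96 genes (14.6%) had a p under 0.05, against 10.6% of all genes, with 10 negative and 4 positive. The 96 include genes that passed the filter in 1 tissue only. Among the 69 tested in both, the genes with a p under 0.05 were the 3 above and 6 others. The rest had few counts in 1 tissue, such as Cybrd1 with 3, 3 and 4 counts in WT livers and 0 in each KO liver. None of the 96 passed an adjusted p of 0.1, against 0% of all genes in edgeR, and the smallest was 0.155. With the mouse as replicate block 13 genes had a p under 0.05 and again none passed an adjusted p of 0.1, against 0.359% of all genes.

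The smallest p for liver minus brain was that of Ccdc173, which entered this fit through its brain counts, at -3.07 ± 0.71 (SE) on the log2 scale at an adjusted p of 0.155 (edgeR). Cdca7 followed at -2.17 ± 0.52 (SE), Nostrin at -1.49 ± 0.39 (SE), Tank at -1.10 ± 0.30 (SE), Cir1 at -0.94 ± 0.27 (SE) and Ppig at -1.34 ± 0.41 (SE). For Nostrin the brain values were 2.38, 0.903 and 1.46 CPM in WT and 3.41, 2.52 and 2.18 CPM in KO, with overlap and a log2 fold change of 0.78 ± 0.40 (SE). Cerkl (1.65 ± 0.69, SE) and Ube2e3 (0.54 ± 0.20, SE) were among the 4 with the opposite sign, being lower in brain. Rapgef4, higher in liver, was at 455, 262 and 460 CPM in WT brains and 555, 362 and 486 CPM in KO brains, with overlap and a log2 fold change of 0.25 ± 0.24 (SE).

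**Figure D5:**
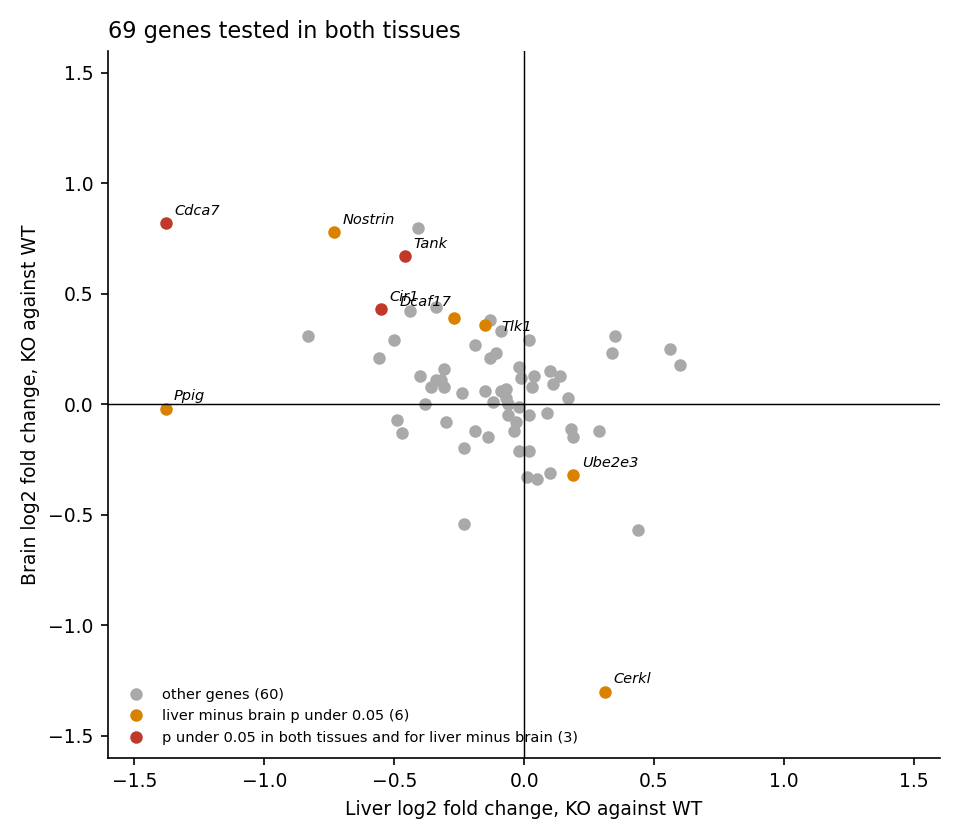
Log2 fold change of KO against WT in brain (y axis) and in liver (x axis) for the 69 genes tested in both tissues, coloured by the test of liver minus brain. Tank, Cdca7 and Cir1 (red) lie lower in liver and higher in brain, and Ppig lies far to the left at a brain value of -0.02.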

How the data were processed

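Total RNA of liver and brain from 6 mice was sequenced as stranded, single-end libraries. The authors ran FastQC 0.11.5 and Trimmomatic, aligned reads to mm10 with STAR 2.7.3a and summed reverse-stranded reads per gene over exons with featureCounts. The deposited values are these raw counts, not normalised. Counts over all exons do not show the deleted exon, and depth (14403309 to 21623180 counts) limits genes with few counts.

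The fits used edgeR 4.0.16 (R 4.3.3), each tissue on its 6 libraries: TMM, the filterByExpr filter, robust quasi-likelihood fit and test of KO against WT, and Benjamini-Hochberg adjustment over all genes tested with a threshold of 0.1. Unadjusted p under 0.05 is given beside it. The authors tested with DESeq2, which was run as an alternative (1.42.0). The script was tested on simulated data. Distance is the gap between a gene and Mettl5 in the coordinates of the counts table. For 116 of the 122 genes the versioned identifier is in GENCODE M21, from which the GC content was taken for all 122 by symbol or identifier.

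Groups and mice follow the deposited labels, which give both tissues of an animal 1 letter, so the tissues are paired by animal. The labels do not say that mice are separate litters, so p-values measure the spread between these 6 mice. The genes were taken by position alone, but the choice of this stretch and of the role lists was made with earlier results of these data known. Named genes were, per tissue, the 6 higher and the 6 lower with the smallest p among those without overlap, the 4 tested nearest on each side, those with p under 0.05 in both tissues, and examples from 13 role lists in order of p. Further genes were named where they completed a count. The limit given for a count of 0 covers counting error only. The study counts its mice in pairs, but KO mice carry no label that ties them to WT mice, and genotypes were compared unpaired. Promoter windows and their sequences are from RefSeq (GRCm38.p6). Alternatives were DESeq2, RLE size factors, no filter on low counts, all 12 libraries in one fit, Y-linked transcripts as a covariate, a GC and length offset, leaving out each mouse, windows of 5 and 20 Mb, every biotype and the mouse as replicate block.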

Additional observations from a re-analysis of the deposited data

Results flagged for a closer look

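Tank, Cdca7 and Cir1 were flagged because KO lay below WT in liver and above WT in brain, with an unadjusted p under 0.05 for the difference between the tissues. They are the 3 genes with a p under 0.05 in each tissue. The p for the difference and the lack of overlap rest on the same libraries and are no separate support. Opposite directions are no mark of these genes, since 151 of 172 such genes in the whole table (87.8%) had them. The liver effect minus the brain effect was -1.10 for Tank, -2.17 for Cdca7 and -0.94 for Cir1 on the log2 scale, with unadjusted p of 0.00264, 0.00102 and 0.00326 in edgeR's quasi-likelihood test over all 12 libraries. The adjusted p-values were 0.232, 0.171 and 0.236, and with the mouse as replicate block 0.298, 0.249 and 0.241, so none of them passed the correction. Every KO liver library was below and every KO brain library above the WT libraries for each of the 3 genes. The brain differences shrank with the GC and length offset for Tank (0.34 against 0.67) and Cir1 (0.28 against 0.43), and that of Cdca7 was 0.54 in place of 0.82 without WT mouse D. The liver difference of Tank was -0.30 in place of -0.46 without WT mouse B.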

How the results depend on the processing

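The median log2 fold change in liver stayed negative under every alternative run (-0.17 to -0.04), and that in brain stayed positive (0.02 to 0.14) except with the GC and length offset (-0.03). Genes with p under 0.05 in liver numbered 7 of 42 with the 5 Mb window and 14 of 121 with the 20 Mb window. The share of all genes was 7.33%. Leaving out each mouse in turn, the number ran from 7 (without WT mouse B, 4.85% of all genes) to 14 (without WT mouse D, 6.74%). In brain the number was 7 of 54 with the 5 Mb window and 24 of 145 with the 20 Mb window, against 11.0% of all genes. Where the share of all genes was computed, it ran from 7 (without WT mouse D, 5.30% of all genes) to 17 (without WT mouse B, 15.4%). Without KO mouse C it was 19, but the share of all genes was not computed there, so that count has no comparison. Genes past an adjusted p of 0.1 in liver numbered 4 with DESeq2, 6 without the filter on low counts (where 1.63% of all genes passed), 1 with the Y-linked covariate and from 0 to 1 leaving out each mouse (Ppig without WT mouse D, where 0.597% of all genes passed). In brain they numbered 2 with DESeq2, 6 without the filter (3.15% of all genes) and 2 with the GC and length offset (0.355% of all genes). The count for liver minus brain was 13 with the mouse as replicate block, which pairs the tissues, and 0 at an adjusted p under 0.1. The cause of these changes was not tested, apart from the smaller or larger set of genes that a window holds. Directions turned in genes near 0: Gorasp2 in liver (-0.38 to 0.10 leaving out a mouse) and, in brain, Klhl23 (-0.07 with the offset, -0.11 to 0.11 leaving out a mouse), Phospho2 (-0.01 with DESeq2, -0.02 without the filter, -0.10 with the offset, -0.08 to 0.14 leaving out a mouse), Ppig (-0.13 to 0.05) and Gad1 (-0.12 to 0.21) leaving out a mouse. Spc25, Cdca7 and Sp5 had few counts, which limits their precision.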
